A study of Mus musculus with 12 samples.

Results

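The translation initiation and elongation factors of mouse liver were followed across 12 microarrays. A gene was a member if the accession of its probe mapped to a mouse symbol that begins with Eif or Eef and a digit, leaving out the kinases Eif2ak1 to Eif2ak4 and Eef2k. This gave 108 of 41174 probes and 60 of 25271 genes or unnamed probes. All 60 were tested, each through its brightest probe, and each was well above background on all 12 arrays. Of the 66 such protein-coding symbols in the RefSeq gene table used for names, Eif2b3, Eif4a3l1, Eef1akmt3, Eif4e1b, Eef1akmt4-ece2 and Eif3j2 had no probe.

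All mice carried the floxed Myc gene (MycF/F) on C57BL/6, with or without the ERT2-Cre transgene, a Cre recombinase of the kind that tamoxifen activates. They received a control diet or a diet with 0.1% Wy-14643, an agonist of the nuclear receptor PPARA, for 2 days, and whole-liver RNA was taken. The groups were Wy-14643-fed MycF/F,ERT2-Cre (4 arrays), control-fed MycF/F,ERT2-Cre (4 arrays), Wy-14643-fed MycF/F (3 arrays) and control-fed MycF/F (1 array, whose RNA is labelled as a pool). The labels call the Cre-carrying mice ko and the others wt, and they give no tamoxifen schedule, no promoter for the transgene, and no sex, age or identity of the animals. P-values therefore measure the spread between these samples, which may be partly technical.

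Initiation begins when eIF2 brings the initiator tRNA to the small ribosomal subunit, where eIF1, eIF1A, eIF5 and the large eIF3 complex help to scan for the start codon. The eIF4F complex, made of the cap-binding protein eIF4E, the scaffold eIF4G and the helicase eIF4A, recruits capped mRNA, and eIF4E-binding proteins hold eIF4E back. Elongation factors of the eEF1 group deliver tRNAs to the ribosome, and eEF2 moves the ribosome along the message. Genes of this machinery are known as targets of MYC in growing cells, and hepatocytes, which export most plasma proteins, express them at high levels.

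Each array set sample RNA in Cy5 against a pooled liver reference in Cy3, so every level below is a log2 ratio of sample to reference and cannot be set against that of another gene. From 64.6% to 77.1% of spots per array were well above background, the Cy5 signal stood at a median of 2.64 to 4.82 times its background, and no Cy5 spot was saturated. The arrays lay on 3 slides, each scanned on its own. On slide 1 the scanner software marked 5.47% to 8.35% of spots as outliers, against 0.904% to 1.84% on slides 2 and 3. These spots were dropped, so that 37 of the 60 factors had a value on all 12 arrays. The number of arrays, and for several factors these dropped spots, limit the precision.

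The Myc probe with 10 spots per array read -1.21, -1.15, -0.96 and -1.03 in Wy-14643-fed MycF/F,ERT2-Cre livers, and -0.86, -0.22, -0.91 and -1.06 in control-fed MycF/F,ERT2-Cre livers. It read 0.88, 0.52 and 0.88 in Wy-14643-fed MycF/F livers and 0.22 in the MycF/F control. On Wy-14643 it was lower in MycF/F,ERT2-Cre by a log2 difference of -1.85 (SE 0.17, limma adjusted p = 0.00386). With the replicate number as a block, though no pairing of the animals is known, the call ended, at -1.81 with adjusted p = 0.0682. Blocking on slide instead left -1.85 (adjusted p = 0.00455). A second probe gave -1.82, and the brightest gave -0.57 with adjusted p = 0.270. Where these probes lie relative to the floxed exons was not determined, and a probe outside them would not check the deletion.

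As a whole the factors were highest in Wy-14643-fed MycF/F livers and lowest on control diet. Over the 37 factors with complete values, the mean log2 ratio was 0.02, -0.06, -0.06 and -0.06 in Wy-14643-fed MycF/F,ERT2-Cre livers and -0.21, -0.15, -0.25 and -0.21 in control-fed MycF/F,ERT2-Cre livers. In MycF/F it was 0.07, 0.06 and 0.08 on Wy-14643, and -0.15 on control diet. The arrays of the 4 groups did not overlap in this mean, except that the single MycF/F control lay within the range of the MycF/F,ERT2-Cre controls. Over all genes with complete values the mean was 0.05 to 0.08 in Wy-14643-fed MycF/F,ERT2-Cre livers and 0.01 to 0.05 in control-fed MycF/F,ERT2-Cre livers. In MycF/F that mean was 0.04 to 0.07 on Wy-14643 and 0.06 on control diet. The mean of the factors is given as a description, without a test. It leaves out factors with a missing value, such as Eef1a1, Eef1b2 and Eif5a. In bulk tissue, fewer cells of a type and less RNA per cell cannot be told apart.

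**Figure D1:**
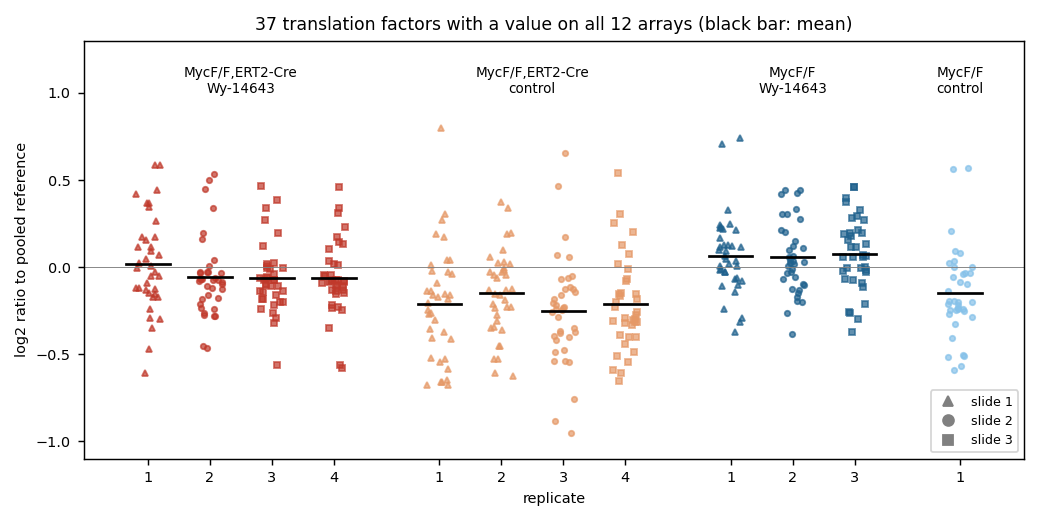
Log2 ratio of sample to pooled liver reference (vertical axis) for the 37 translation factors with a value on all 12 arrays, 1 column of points per array, coloured by group and shaped by slide, with a black bar at each array's mean. The bars of Wy-14643-fed MycF/F livers lie at 0.06 to 0.08, those of Wy-14643-fed MycF/F,ERT2-Cre livers at -0.06 to 0.02 and those of the control diet arrays at -0.25 to -0.15.

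The first question was what Wy-14643 did to these genes in MycF/F,ERT2-Cre livers. Of 60 factors 9, or 15%, rose and 0 fell at a limma adjusted p under 0.05. Over all 25163 genes tested in that comparison 16.4% were called (9.12% higher and 7.26% lower). The share of factors called in either direction was thus near that of all genes, while all of their calls were increases. The median log2 difference of the 60 factors was 0.14, against 0.03 for all genes, and 44 of 60 were above 0. The factors' median was 0.062 with the Cy5 channel alone and 0.22 under median centring. Without slide 1, 10 factors rose and 3 fell, a count not set beside the share of all genes in that fit. On each slide taken alone the median was 0.13 on slide 1, 0.12 on slide 2 and 0.14 on slide 3. Under the deposited log ratio, median centring or added scale normalization 3 factors were called, and 1 with the Cy5 channel alone, against 14.4%, 3.55%, 12.4% and 5.18% of all genes.

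The second question was the same diet effect in MycF/F livers, which rests on 3 arrays against a single pooled control. Of 58 factors tested, 4 rose (Eif3i, Eif1ax, Eif3j1 and Eif4a2) and Eif4ebp3 fell, against 6.54% of 24911 genes called (3.28% higher and 3.25% lower). Eef2 and Eif3m had no value in the MycF/F control. The median of the 58 was 0.22, against 0.00 for all genes, and 48 of 58 were above 0. None of these 5 was called under the deposited log ratio, median centring, the Cy5 channel alone or scale normalization, and the spread of the control group is taken from the other groups.

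The diet comparisons in the 2 genotypes use different arrays, though the same reference RNA and one estimate of the spread. Across the 58 factors their log2 differences correlated with Pearson r = 0.79 (Spearman rho 0.76), and 52 of 58 had the same sign. Over all 24874 genes r was 0.86 and 71.2% had the same sign.

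**Figure D2:**
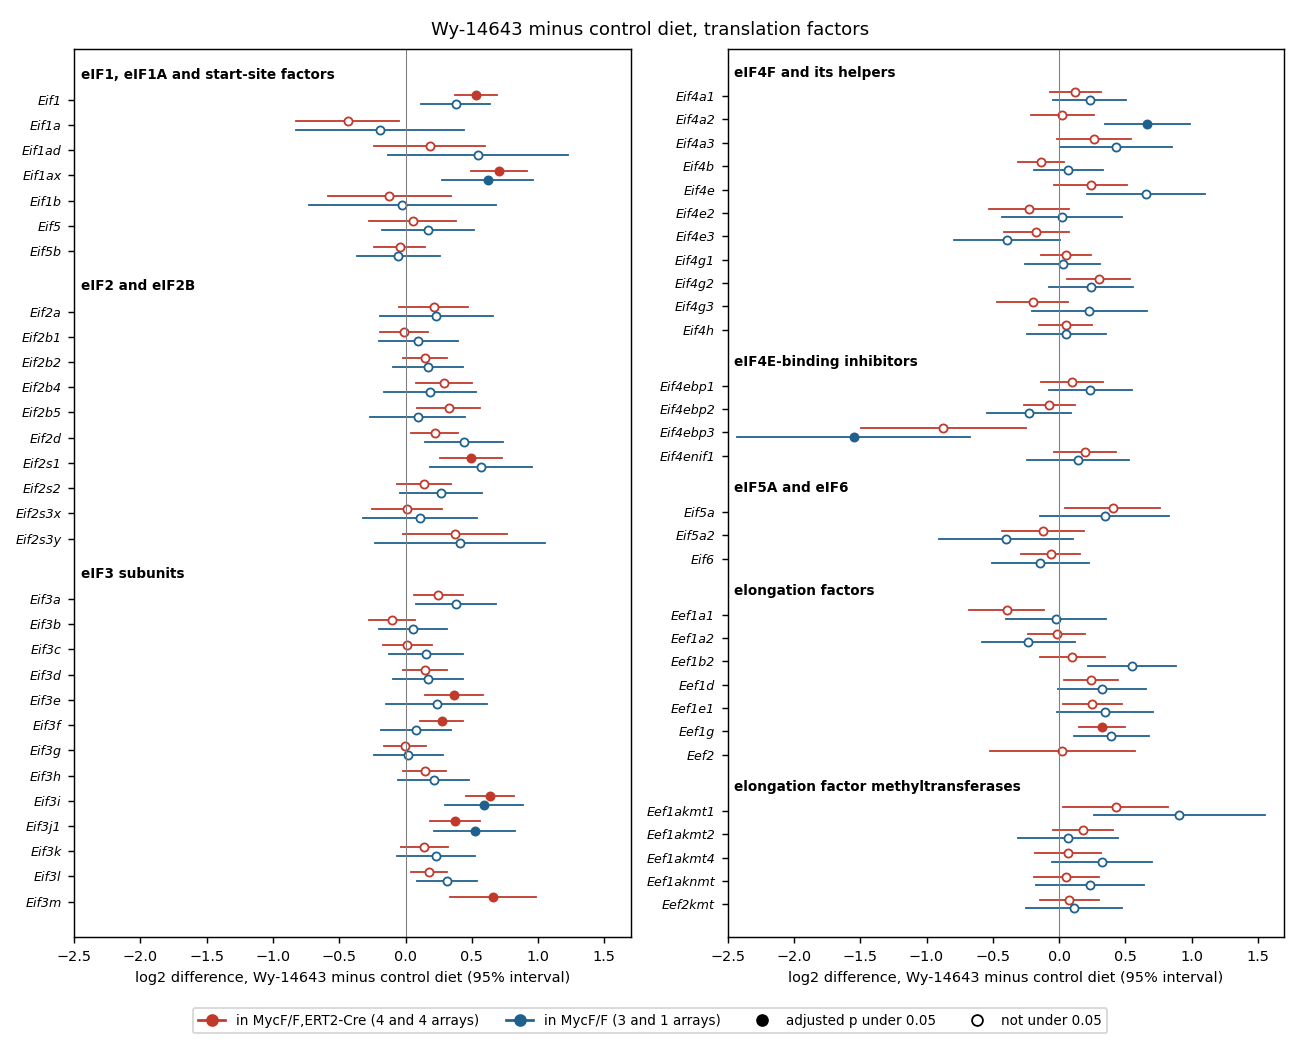
Log2 difference of Wy-14643 minus control diet (horizontal axis, line: 95% interval) for each of the 60 factors, ordered by role, in MycF/F,ERT2-Cre (red, 4 arrays against 4) and in MycF/F (blue, 3 against 1); filled points passed an adjusted p of 0.05. Filled red points are the 9 called factors, 5 of them eIF3 subunits, all to the right of 0, and the filled blue point far to the left is Eif4ebp3 at -1.55.

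The third question was whether the genotypes differed on Wy-14643. None of the 60 factors passed in limma, where 0.103% of 25167 genes did (0.0199% higher and 0.0834% lower). At an unadjusted p under 0.05 there were 13, of which 12 were lower in MycF/F,ERT2-Cre and 1 higher, which is 21.7% of the factors against 8.32% of all genes. The median log2 difference was -0.14, against 0.02 for all genes, and 44 of 60 lay below 0. By slide the median was -0.07 on slide 1, -0.10 on slide 2 and -0.13 on slide 3. Of the 60 differences the lowest was Eef1b2 at -0.65 and the highest Eif4ebp3 at 0.65. With array weights, or without slide 1, 1 factor passed in each case.

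**Figure D3:**
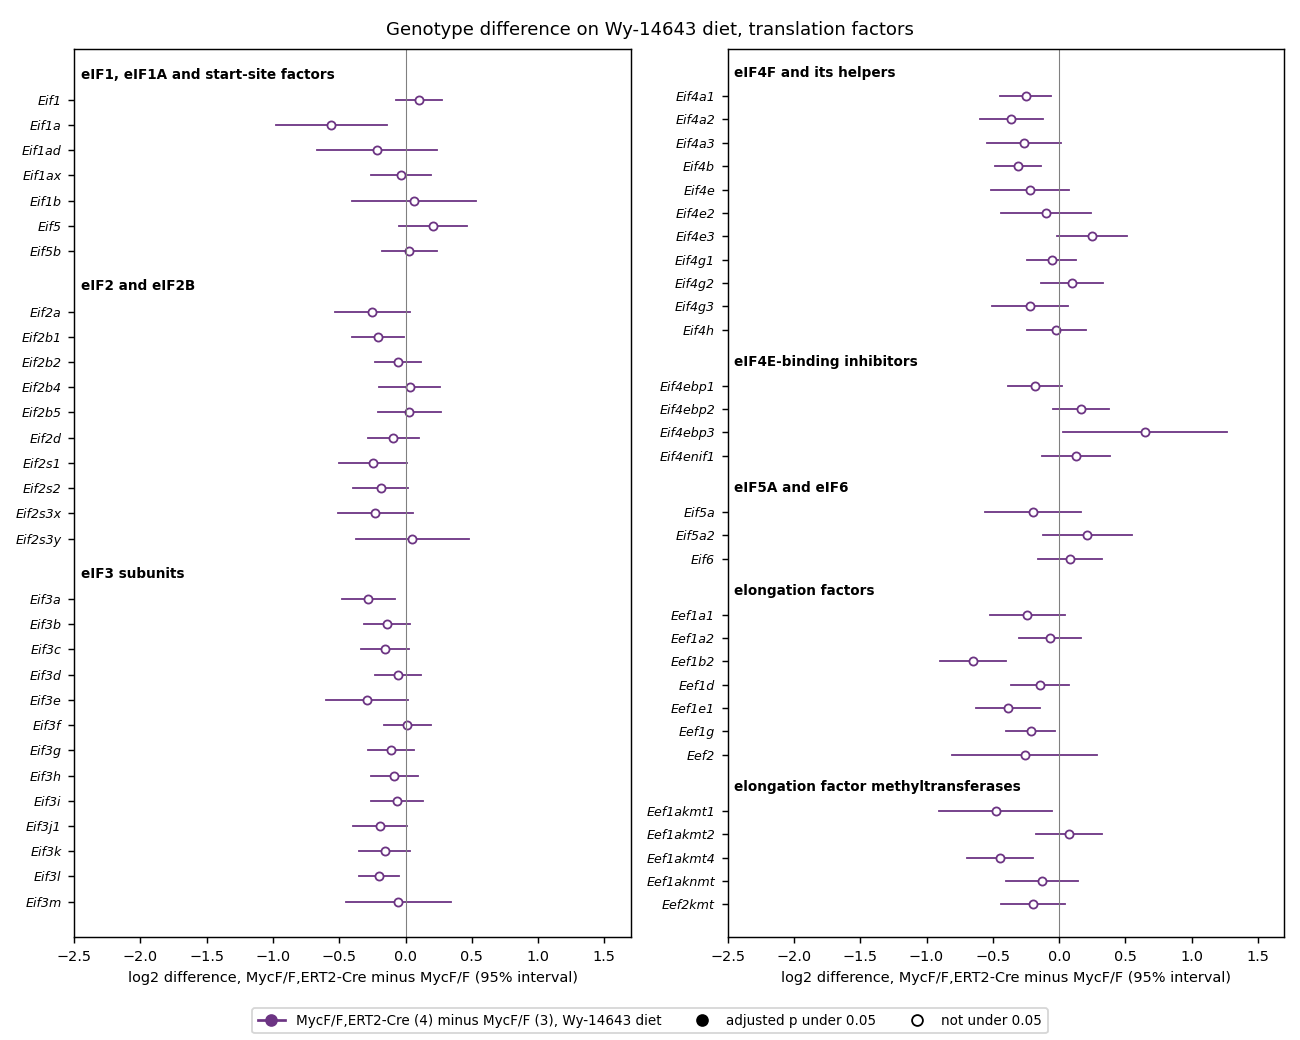
Log2 difference of MycF/F,ERT2-Cre minus MycF/F, both on Wy-14643 (horizontal axis, line: 95% interval) for each of the 60 factors, ordered by role. All points are open because none passed an adjusted p of 0.05; all 7 elongation factors and 12 of 13 eIF3 subunits lie left of 0, and Eif4ebp3 lies furthest right at 0.65.

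On control diet the genotypes could be compared for 58 factors, with 1 MycF/F array. None was called by limma, against 0% of all genes, and 1 had an unadjusted p under 0.05, as did 1.80% of all genes. The median was -0.06 for the factors and -0.02 for all genes. Across the factors, this difference correlated with that on Wy-14643 at r = 0.32 (rho 0.39, n = 58), and 41 of 58 had the same sign, against r = 0.16 and 53.5% over all genes. The test of whether the diet effect differed between genotypes called 0 of 58 factors and 0% of all genes. Its smallest adjusted p was 1.00, and 2 factors, Eif4a2 at -0.64 and Eef1b2 at -0.45, had an unadjusted p under 0.05, as did 2.17% of all genes.

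The promoters of the factors were searched for 2 short motifs in windows from 250 bases before to 50 after each annotated start, taken from RefSeq (GRCm38.p6). CACGTG, the E-box that MYC with MAX can bind, reads the same on both strands, and AGGTCA, the half-site of nuclear receptors, was searched on both. Of 48 factors with a window 13 held a CACGTG, or 27.1%, against 8.09% of 27025 genes. By window it was 25.0% of 60 and 7.15% of 32851. Half-sites were in 8.33% of the factors' windows and 16.3% of all, and the repeat of the half-site with 1 base between the copies was in none of the 60 and in 13 of all windows. The windows differed in base composition, with a median GC content of 62.5% in the factors and 52.7% over all. No match of both motifs overlapped. A match is a description of the sequence and not evidence of binding.

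Of the 9 factors that rose in Wy-14643-fed MycF/F,ERT2-Cre livers, 6 had a window, and 1 of these held a CACGTG. Printed here are that one, Eif3f, with its E-box 68 bases before the start, and Eif4g1, the eIF4F scaffold gene. Eif4g1 was not called by its brightest probe and holds 2, beginning 54 bases before and 16 after the start. Another Eif4g1 probe passed in the same comparison, at 0.42 (limma adjusted p = 0.0324). Eif1ax and Eif3j1 are shown as the called factors with a window that rose in both genotypes, and they hold neither motif. Capitals mark CACGTG. Eif3f lies at chr7:108934165-108934464, Eif4g1 at chr16:20672477-20672776, Eif1ax at chrX:159371928-159372227 and Eif3j1 at chr2:122028330-122028629, all on the plus strand of GRCm38.p6.
Eif3f: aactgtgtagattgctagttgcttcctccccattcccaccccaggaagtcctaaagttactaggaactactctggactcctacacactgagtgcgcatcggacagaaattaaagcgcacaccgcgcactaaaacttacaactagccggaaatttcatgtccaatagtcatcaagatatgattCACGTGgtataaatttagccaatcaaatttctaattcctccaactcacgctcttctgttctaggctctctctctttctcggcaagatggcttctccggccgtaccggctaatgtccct
Eif4g1: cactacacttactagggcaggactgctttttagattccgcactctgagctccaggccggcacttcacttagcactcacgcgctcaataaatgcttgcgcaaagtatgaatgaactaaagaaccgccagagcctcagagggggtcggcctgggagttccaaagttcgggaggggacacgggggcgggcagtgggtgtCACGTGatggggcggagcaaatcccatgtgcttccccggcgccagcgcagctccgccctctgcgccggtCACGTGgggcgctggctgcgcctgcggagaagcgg
Eif1ax: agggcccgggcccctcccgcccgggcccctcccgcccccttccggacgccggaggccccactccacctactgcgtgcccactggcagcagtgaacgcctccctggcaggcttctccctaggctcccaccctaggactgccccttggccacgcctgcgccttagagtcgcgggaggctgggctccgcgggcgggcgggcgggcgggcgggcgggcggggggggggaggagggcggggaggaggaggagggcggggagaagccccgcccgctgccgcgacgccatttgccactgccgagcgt
Eif3j1: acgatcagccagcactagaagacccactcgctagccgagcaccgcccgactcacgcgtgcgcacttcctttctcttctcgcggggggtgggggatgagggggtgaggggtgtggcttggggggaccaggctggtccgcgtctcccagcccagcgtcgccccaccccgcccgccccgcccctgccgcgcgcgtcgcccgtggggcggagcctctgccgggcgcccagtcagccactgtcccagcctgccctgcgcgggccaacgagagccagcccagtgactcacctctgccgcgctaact
Beside these sequences, the difference on Wy-14643 in MycF/F,ERT2-Cre by the brightest probes was 0.27 for Eif3f, 0.05 for Eif4g1, 0.70 for Eif1ax and 0.37 for Eif3j1. For the genotypes on Wy-14643, it was 0.01, -0.06, -0.03 and -0.19 in the same order.

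The set of eIF1, eIF1A and related genes held 7, grouped by name. Not all of them select the start codon, Eif1ad and Eif5b being exceptions. Of these 7 genes 2, Eif1 and Eif1ax, rose on Wy-14643 in MycF/F,ERT2-Cre, against 9.12% of all genes. Eif1 encodes eIF1, which guards the accuracy of start-codon choice. Eif1 read 0.59, 0.53, 0.47 and 0.46 in Wy-14643-fed MycF/F,ERT2-Cre livers and 0.04, -0.13, 0.07 and -0.07 in control-fed MycF/F,ERT2-Cre livers. MycF/F livers read 0.33, 0.44 and 0.46 on Wy-14643 and 0.03 on control diet. In both genotypes every Wy-14643 array lay above every control array. In MycF/F,ERT2-Cre the log2 difference was 0.53 (SE 0.07, 1.45-fold, limma adjusted p = 0.000316), with 0.63, 0.46 and 0.53 on the 3 slides. A second Eif1 probe gave 0.51 (adjusted p = 0.00586). With the Cy5 channel alone the sign turned, to -0.18 with adjusted p = 0.859.

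Eif1ax, on the X chromosome, encodes eIF1A, the partner of eIF1 on the small subunit. It read 0.34, 0.45, 0.34 and 0.23 in Wy-14643-fed MycF/F,ERT2-Cre livers, and -0.27, -0.61, -0.26 and -0.32 in control-fed MycF/F,ERT2-Cre livers. The MycF/F arrays gave 0.22, 0.44 and 0.46 on Wy-14643 and -0.24 on control diet. The diets did not overlap in either genotype. The difference was 0.70 in MycF/F,ERT2-Cre (SE 0.10, 1.63-fold, limma adjusted p = 0.000306) and 0.62 in MycF/F (SE 0.16, adjusted p = 0.0345). Added scale normalization and the Cy5 channel alone each ended the first call, at adjusted p = 0.0639 and 0.213. The call in MycF/F ended without Wy-14643-fed MycF/F replicate 2 (adjusted p = 0.0931) or 3 (0.0966), and without Wy-14643-fed MycF/F,ERT2-Cre replicate 3 (0.0537). A second Eif1ax probe gave 0.39 in MycF/F,ERT2-Cre and 0.14 in MycF/F.

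The related Eif1a differed in the other direction without passing. Its log2 difference on Wy-14643 was -0.44 in MycF/F,ERT2-Cre (adjusted p = 0.128), and between genotypes on Wy-14643 it was -0.56 (adjusted p = 0.355). Eif5, which triggers GTP hydrolysis by eIF2, and Eif5b, which joins the subunits, differed by 0.05 and -0.05 on Wy-14643 in MycF/F,ERT2-Cre.

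The 10 genes with an Eif2 symbol were grouped by name, and Eif2a and Eif2d among them are not subunits of eIF2 or eIF2B. Of these 10 genes 1 rose in Wy-14643-fed MycF/F,ERT2-Cre livers by its brightest probe, against 9.12% of all genes. By any probe it was 4, but several probes give a gene more chances to pass. The share of all genes called by any probe is not given. By the brightest probes 9 of 10 differences were above 0 with a median of 0.21. The gene that rose, Eif2s1, encodes the alpha subunit of eIF2, the one that stress kinases phosphorylate. It read 0.26, 0.20, -0.16 and 0.01 in Wy-14643-fed MycF/F,ERT2-Cre livers and -0.19, -0.53, -0.54 and -0.40 in control-fed MycF/F,ERT2-Cre livers. Without Cre, the readings were 0.24, 0.34 and 0.40 on Wy-14643 and -0.24 on control diet. The diets did not overlap, the 2 slide 3 arrays of Wy-14643-fed MycF/F,ERT2-Cre livers being the lowest of their group. The difference in MycF/F,ERT2-Cre was 0.49 (SE 0.11, 1.41-fold, limma adjusted p = 0.00785), and in MycF/F it was 0.57 with adjusted p = 0.0867. The call in MycF/F,ERT2-Cre ended under the deposited log ratio, median centring, the Cy5 channel alone and scale normalization, at adjusted p from 0.100 to 0.348. A second Eif2s1 probe gave 0.25 with adjusted p = 0.368.

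Eif2b4, the delta subunit of the exchange factor eIF2B and the brightest of this set, read 0.12, -0.12, -0.01 and -0.09 in Wy-14643-fed MycF/F,ERT2-Cre livers and -0.58, -0.27, -0.25 and -0.15 in control-fed MycF/F,ERT2-Cre livers. In MycF/F livers the readings were -0.11, -0.05 and -0.00 on Wy-14643 and -0.24 on control diet. The difference of 0.29 in MycF/F,ERT2-Cre did not pass (adjusted p = 0.0641), while a second Eif2b4 probe gave 0.57 and passed (limma adjusted p = 0.0218). Other probes of Eif2d (0.33, adjusted p = 0.0494) and Eif2s2 (0.32, adjusted p = 0.0441) also passed, where the brightest probes did not. Eif2s3x and its Y-linked counterpart Eif2s3y, both gamma subunits of eIF2, differed by 0.01 and 0.37 in that comparison and neither passed. For the genotypes on Wy-14643, 7 of the 10 were below 0, with a median of -0.14.

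The eIF3 subunits held 5 of the 9 calls. In Wy-14643-fed MycF/F,ERT2-Cre livers Eif3i, Eif3j1, Eif3m, Eif3f and Eif3e rose, 5 of 13, and 11 of 13 differences were above 0 with a median of 0.18. Of all genes 9.12% rose and 56.6% were above 0. In MycF/F all 12 tested subunits were above 0, with a median of 0.22, and Eif3i and Eif3j1 rose. In that comparison 3.28% of all genes rose and 49.2% were above 0.

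Eif3i encodes a WD-repeat subunit at the edge of the complex. It read 0.01, 0.04, -0.14 and -0.16 in Wy-14643-fed MycF/F,ERT2-Cre livers, and -0.68, -0.63, -0.89 and -0.61 in control-fed MycF/F,ERT2-Cre livers. MycF/F livers read -0.01, 0.04 and -0.02 on Wy-14643 and -0.59 on control diet. The Wy-14643 arrays of both genotypes overlapped and lay clear of all 5 control arrays. The difference was 0.64 in MycF/F,ERT2-Cre (SE 0.08, 1.56-fold, limma adjusted p = 0.000208), with 0.66, 0.93 and 0.46 on the 3 slides. It was 0.59 in MycF/F (SE 0.13, adjusted p = 0.0195). Median centring ended the call in MycF/F,ERT2-Cre, at 0.77 with adjusted p = 0.124. The call in MycF/F ended without Wy-14643-fed MycF/F replicate 2, at 0.57 with adjusted p = 0.0572.

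Eif3j1 encodes the loosely bound subunit that also takes part in ribosome recycling. It read 0.02, -0.24, -0.30 and -0.23 in Wy-14643-fed MycF/F,ERT2-Cre livers and -0.65, -0.53, -0.54 and -0.51 in control-fed MycF/F,ERT2-Cre livers. The MycF/F arrays gave 0.01, -0.10 and 0.12 on Wy-14643 and -0.51 on control diet. The diets did not overlap. The difference was 0.37 in MycF/F,ERT2-Cre (SE 0.09, 1.29-fold, limma adjusted p = 0.0105) and 0.52 in MycF/F (SE 0.14, adjusted p = 0.0469). Without slide 1 the first was 0.27 with adjusted p = 0.0827. The call in MycF/F ended in 9 of 11 fits that left out 1 array, at adjusted p from 0.0555 to 0.128: without any 1 of the 3 Wy-14643-fed MycF/F arrays, or without replicate 2, 3 or 4 of either MycF/F,ERT2-Cre group. It also ended with slide as a block, at 0.48 with adjusted p = 0.0976.

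Eif3f, whose product belongs to the octamer core with an MPN fold, read -0.09, -0.28, -0.22 and -0.35 in Wy-14643-fed MycF/F,ERT2-Cre livers, and -0.55, -0.45, -0.55 and -0.49 in control-fed MycF/F,ERT2-Cre livers. Without Cre, the readings were -0.31, -0.17 and -0.26 on Wy-14643 and -0.33 on control diet. Within each genotype the diets did not overlap, though in MycF/F the gap between the lowest Wy-14643 array and the control was small. The lowest Wy-14643-fed MycF/F,ERT2-Cre array, at -0.35, lay below the MycF/F control at -0.33. The difference was 0.27 in MycF/F,ERT2-Cre (SE 0.07, 1.21-fold, limma adjusted p = 0.0248) and 0.08 in MycF/F. Its call ended without control-fed MycF/F,ERT2-Cre replicate 1 (0.26, adjusted p = 0.0518) or 3 (0.26, 0.0527), without Wy-14643-fed MycF/F,ERT2-Cre replicate 1 (0.23, 0.0573) or 3 (0.27, 0.0586), and without slide 1 (0.24, 0.0999).

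Eif3m had few values. This PCI-domain subunit read -0.05 and -0.05 in Wy-14643-fed MycF/F,ERT2-Cre livers (replicates 2 and 4) and -0.60 and -0.82 in control-fed MycF/F,ERT2-Cre livers (replicates 3 and 4), with 0.01 on 1 MycF/F Wy-14643 array. Its spots on the other arrays were outliers and were dropped. The difference was 0.66 (SE 0.13, n = 2 and 2, limma adjusted p = 0.020), and it did not pass without Wy-14643 replicate 2 (0.66, adjusted p = 0.0884) or 4 (0.66, 0.0910) or without control replicate 4 (0.55, 0.0886).

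Eif3e, another PCI-domain subunit, had 3 values in each MycF/F,ERT2-Cre group, -0.01, -0.22 and -0.17 on Wy-14643 and -0.45, -0.50 and -0.55 on control diet. In MycF/F it had 0.16 on 1 Wy-14643 array and -0.08 on control diet. The difference in MycF/F,ERT2-Cre was 0.37 (SE 0.10, limma adjusted p = 0.0336). Its call ended in 6 of 12 fits that left out 1 array, those without replicate 2, 3 or 4 of either MycF/F,ERT2-Cre group, at 0.31 to 0.41 and adjusted p from 0.0532 to 0.113. A second Eif3e probe gave 0.19 with adjusted p = 0.221.

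The calls of Eif3j1, Eif3f and Eif3e in MycF/F,ERT2-Cre also ended under the deposited log ratio, median centring, the Cy5 channel alone and scale normalization, and that of Eif3m under the first and the last 2 of these. Eif3h, the brightest subunit, read -0.12, -0.07, -0.20 and -0.10 in Wy-14643-fed MycF/F,ERT2-Cre livers and -0.41, -0.23, -0.13 and -0.31 in control-fed MycF/F,ERT2-Cre livers. Its MycF/F values were -0.03, -0.07 and -0.02 on Wy-14643 and -0.25 on control diet. The MycF/F,ERT2-Cre groups overlapped and the difference of 0.14 did not pass.

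With both genotypes fed Wy-14643, 12 of the 13 eIF3 subunits were below 0, from -0.29 to 0.01 with a median of -0.14. Of all genes 43.3% were below 0. None of the 13 passed in limma, and 2 had an unadjusted p under 0.05, against 8.32% of all genes. Eif3a, the large scaffold subunit, differed by -0.28 (adjusted p = 0.307) and Eif3l by -0.20 (adjusted p = 0.345). For both, every Wy-14643-fed MycF/F,ERT2-Cre array lay below every Wy-14643-fed MycF/F array. This gap goes with their small unadjusted p and is not separate support. The share of all genes with such a gap is not given.

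Apart from the eIF4E-binding inhibitors, 11 genes with an Eif4 symbol were grouped by name. They include genes outside eIF4F itself, such as Eif4b, Eif4h and Eif4a3. None of the 11 was called by limma in Wy-14643-fed MycF/F,ERT2-Cre livers, with a median difference of 0.05. At an unadjusted p under 0.05 there was 1, against 28.0% of all genes. Other probes of Eif4g1 (0.42, adjusted p = 0.0324) and Eif4g2 (0.39, adjusted p = 0.0168) passed. In MycF/F 10 of 11 were above 0 with a median of 0.23, and 1, Eif4a2, rose, against 3.28% of all genes. Eif4a2 encodes an RNA helicase closely related to eIF4A1. It read -0.33, -0.46 and -0.27 in Wy-14643-fed MycF/F,ERT2-Cre livers and -0.40 and -0.35 in control-fed MycF/F,ERT2-Cre livers, so these overlapped. In MycF/F livers the readings were 0.00 and 0.02 on Wy-14643 and -0.66 on control diet. The difference in MycF/F was 0.67 (SE 0.14, n = 2 and 1, limma adjusted p = 0.0264), and a second probe gave 0.88. It did not pass without Wy-14643-fed MycF/F replicate 2 (adjusted p = 0.0923) or 3 (0.102), or without Wy-14643-fed MycF/F,ERT2-Cre replicate 2 (0.0522).

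Between genotypes on Wy-14643, 9 of the 11 genes of this Eif4 set were below 0, with a median of -0.22. Eif4b, the partner that stimulates the eIF4A helicase, read -0.29, -0.22, -0.27 and -0.25 in Wy-14643-fed MycF/F,ERT2-Cre livers and 0.09, -0.05 and 0.12 in Wy-14643-fed MycF/F livers. On control diet it read -0.17, -0.02 and -0.17 in MycF/F,ERT2-Cre and -0.02 in MycF/F. The Wy-14643 groups did not overlap, a gap that goes with the small unadjusted p and is not separate support. The difference of -0.31 (SE 0.08) did not pass over all genes, with limma adjusted p = 0.196, and its other probes gave -0.25 and -0.38. Eif4a1, the brightest of the set, read -0.19, -0.03 and -0.08 in Wy-14643-fed MycF/F,ERT2-Cre livers and 0.17, 0.14 and 0.15 in Wy-14643-fed MycF/F livers, without overlap. Its difference was -0.25 with adjusted p = 0.388, and the gap between the groups is again not separate support. On control diet Eif4a1 read -0.22, -0.32 and -0.13 in MycF/F,ERT2-Cre and -0.08 in MycF/F.

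Of the 4 genes of eIF4E-binding inhibitors, 1 was called, Eif4ebp3 in MycF/F, where 6.54% of all genes were called. Eif4ebp3, which encodes a small eIF4E-binding protein, read -0.13, -0.63 and -0.51 in Wy-14643-fed MycF/F,ERT2-Cre livers and -0.02, 0.13 and 1.24 in control-fed MycF/F,ERT2-Cre livers. MycF/F livers read -1.13, -0.93 and -1.16 on Wy-14643 and 0.48 on control diet. Every Wy-14643 array lay below every control array, and the Wy-14643-fed MycF/F arrays were the lowest. The difference was -0.87 in MycF/F,ERT2-Cre (SE 0.28, limma adjusted p = 0.0603) and -1.55 in MycF/F (SE 0.40, adjusted p = 0.0448). The difference between genotypes on Wy-14643 was 0.65 (adjusted p = 0.565).

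A second Eif4ebp3 probe gave -0.47 in MycF/F,ERT2-Cre, -1.50 in MycF/F (adjusted p = 0.132) and 0.79 between genotypes. The call in MycF/F ended without any 1 of Wy-14643-fed MycF/F replicates 1, 2 and 3 or Wy-14643-fed MycF/F,ERT2-Cre replicates 2, 3 and 4, at adjusted p from 0.0590 to 0.107. With slide as a block it ended as well, at -1.46 with adjusted p = 0.0697. Eif4ebp2, the brightest inhibitor, read -0.03, -0.07, -0.04 and -0.23 in Wy-14643-fed MycF/F,ERT2-Cre livers and -0.21, -0.07, 0.06 and 0.13 in control-fed MycF/F,ERT2-Cre livers. The MycF/F arrays gave -0.37, -0.20 and -0.21 on Wy-14643 and -0.03 on control diet. It was not called in any comparison, nor were Eif4ebp1 and Eif4enif1.

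Eif5a encodes the factor that carries hypusine and eases the ribosome past difficult peptide bonds. It read -0.32, -0.12 and -0.23 in Wy-14643-fed MycF/F,ERT2-Cre livers and -0.87 and -0.38 in control-fed MycF/F,ERT2-Cre livers. Without Cre, the readings were 0.07 and -0.12 on Wy-14643 and -0.37 on control diet. Its difference of 0.40 in MycF/F,ERT2-Cre did not pass (n = 3 and 2, limma adjusted p = 0.134). Eif5a2 and Eif6, which keeps the large subunit apart from the small one, differed by -0.12 and -0.06.

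Among the elongation factors Eef1g rose on Wy-14643 in MycF/F,ERT2-Cre, 1 of 7, against 9.12% of all genes. It encodes the gamma subunit of the eEF1B exchange complex. It read 0.15, -0.08, -0.01 and -0.14 in Wy-14643-fed MycF/F,ERT2-Cre livers and -0.36, -0.34, -0.35 and -0.33 in control-fed MycF/F,ERT2-Cre livers. In MycF/F livers the readings were 0.09, 0.30 and 0.20 on Wy-14643 and -0.20 on control diet. The diets did not overlap. The difference in MycF/F,ERT2-Cre was 0.33 (SE 0.08, 1.25-fold, limma adjusted p = 0.0140), and 0.39 in MycF/F with adjusted p = 0.108. The call ended without slide 1 (0.27, adjusted p = 0.0701) and under the deposited log ratio, median centring, the Cy5 channel alone and scale normalization (adjusted p from 0.0815 to 0.459).

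Eef1a1, the tRNA carrier and the brightest elongation factor, did not pass, and its probes differed in sign. The brightest probe read 0.03, -0.15 and -0.07 in Wy-14643-fed MycF/F,ERT2-Cre livers and 0.48 and 0.19 in control-fed MycF/F,ERT2-Cre livers, a difference of -0.40 (n = 3 and 2, limma adjusted p = 0.0652). MycF/F livers read 0.15 and 0.21 on Wy-14643 and 0.20 on control diet. A second Eef1a1 probe gave 0.11 (SE 0.096, n = 3 and 4, adjusted p = 0.511) in MycF/F,ERT2-Cre. The brightest Eef2 probe had at most 1 value in a group. It read -0.46 in Wy-14643-fed MycF/F,ERT2-Cre livers, -0.49 in control-fed MycF/F,ERT2-Cre livers and -0.20 in Wy-14643-fed MycF/F livers. The other Eef2 probes disagreed in direction, each with 1 control-fed MycF/F,ERT2-Cre array. One read -0.17, -0.26 and -0.27 in Wy-14643-fed MycF/F,ERT2-Cre livers and -0.77 in the control, and passed at 0.53 (limma adjusted p = 0.0316 over all probes). The other read -0.46, -0.41 and -0.50 in Wy-14643-fed MycF/F,ERT2-Cre livers and -0.22 in the control, a difference of -0.24 that did not pass.

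By their brightest probes all 7 genes of the elongation factor set, Eef1e1 included, were below 0 between genotypes on Wy-14643. They ran from -0.65 to -0.07 with a median of -0.24, and 43.3% of all genes were below 0. The Eef2 difference rests on a single array in each group. Other Eef1d probes gave 0.095 and 0.086, against -0.14 for its brightest, and the other Eef1a1 probe gave -0.30. None passed in limma, and 3 had an unadjusted p under 0.05, against 8.32% of all genes. Eef1b2, the beta subunit of eEF1B that exchanges nucleotide on eEF1A, read -0.16, -0.31 and -0.17 in Wy-14643-fed MycF/F,ERT2-Cre livers and 0.38 and 0.50 in Wy-14643-fed MycF/F livers. On control diet it read -0.25 and -0.38 in MycF/F,ERT2-Cre and -0.11 in MycF/F. The Wy-14643-fed MycF/F arrays were the highest, and the other groups lay below 0. The difference between genotypes on Wy-14643 was -0.65 (SE 0.11, 95% interval -0.90 to -0.40, n = 3 and 2), with limma adjusted p = 0.101. It passed with array weights at -0.64 (adjusted p = 0.0180) and without slide 1 at -0.65 (adjusted p = 0.0311). All its slide 1 values were already missing.

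Eef1e1, a scaffold of the tRNA synthetase complex that shares the family name, read -0.35, -0.28, -0.19 and -0.11 in Wy-14643-fed MycF/F,ERT2-Cre livers and -0.06, 0.15 and 0.37 in Wy-14643-fed MycF/F livers. On control diet it read -0.66, -0.45, -0.42 and -0.40 in MycF/F,ERT2-Cre and -0.20 in MycF/F. The Wy-14643 groups did not overlap, and their difference was -0.38 (SE 0.11, limma adjusted p = 0.239). This gap goes with the small unadjusted p by which the gene was chosen and is not separate support.

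The 5 enzymes that methylate elongation factors had no call in limma, with 2 at an unadjusted p under 0.05 between genotypes on Wy-14643 and 1 for the diet in MycF/F,ERT2-Cre, against 8.32% and 28.0% of all genes. Eef1akmt4, the brightest of them and a methyltransferase of eEF1A, read -0.42, 0.01, -0.15 and 0.01 in Wy-14643-fed MycF/F,ERT2-Cre livers and 0.31, 0.41 and 0.21 in Wy-14643-fed MycF/F livers. On control diet it read -0.12, -0.31 and -0.17 in MycF/F,ERT2-Cre and -0.01 in MycF/F. The Wy-14643 groups did not overlap, which goes with the small unadjusted p by which the gene was chosen and is not separate support. Their difference of -0.44 (SE 0.11) had limma adjusted p = 0.195. On the 3 slides it was -0.73, -0.39 and -0.28.

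**Figure D4:**
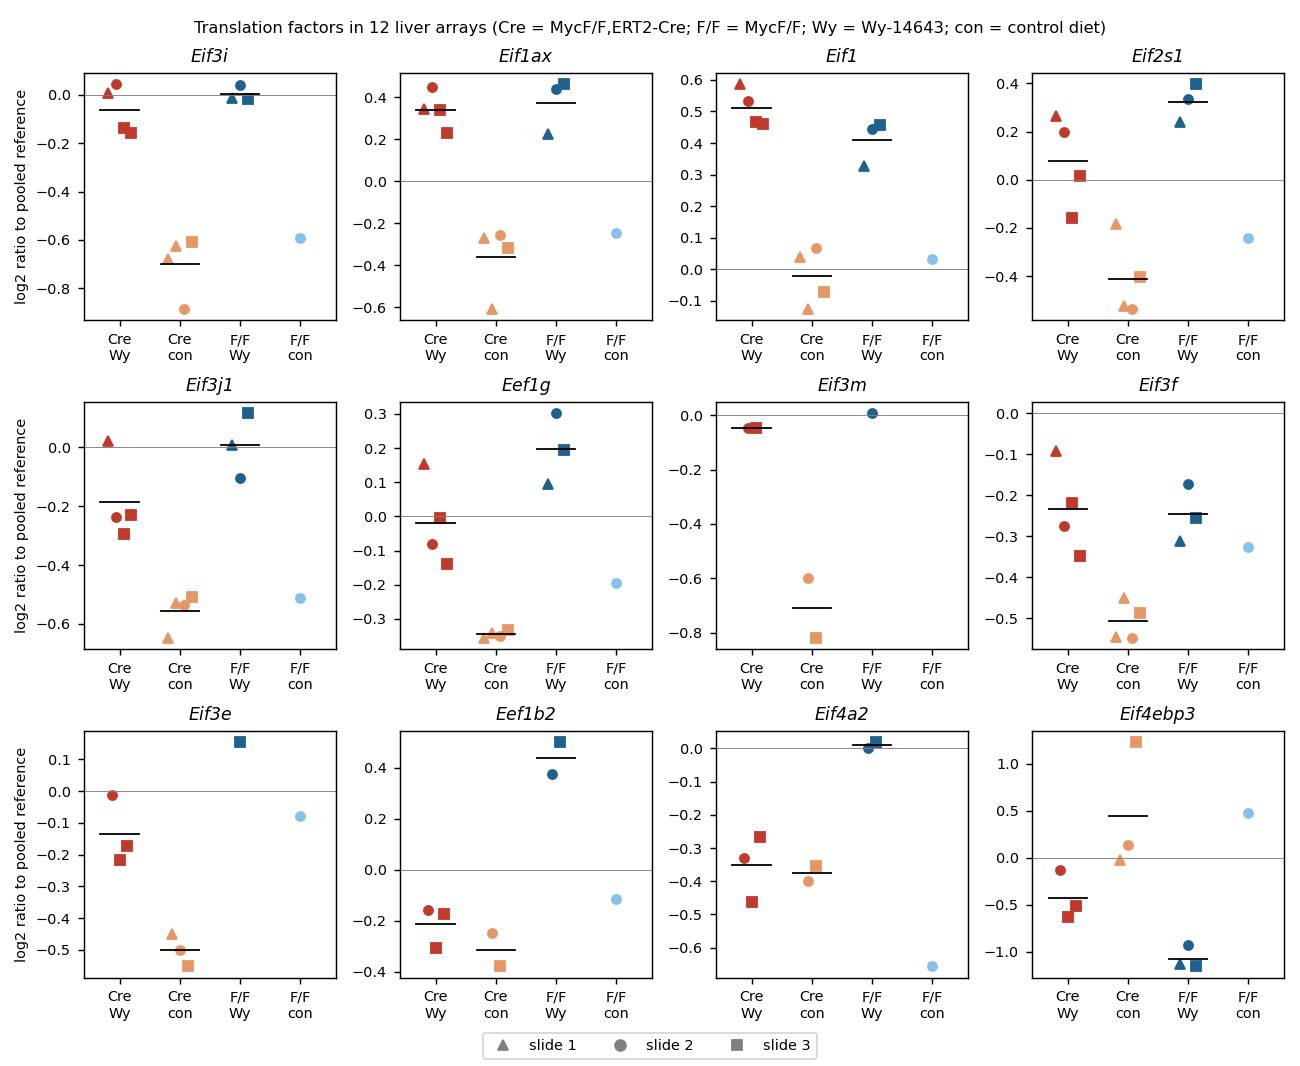
Log2 ratio of sample to pooled liver reference (vertical axis, scaled per panel) on each array for the 9 factors called in Wy-14643-fed MycF/F,ERT2-Cre livers and for Eef1b2, Eif4a2 and Eif4ebp3; points are arrays, shaped by slide, and black lines are group means where a group has over 1 value. In the first 9 panels the MycF/F,ERT2-Cre Wy-14643 points lie above the MycF/F,ERT2-Cre control points, and in the Eef1b2 panel the MycF/F Wy-14643 points, 0.38 and 0.50, lie above all others.

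Of the 60 factors 33 had more than 1 probe. In Wy-14643-fed MycF/F,ERT2-Cre livers, 34 of their 48 other probes had the sign of the probe used. Of these 48 probes 8 passed, all higher, 6 of them for factors whose brightest probe did not pass. The share of all probes that passed is not given beside this count. The Eef2 probe among them rested on 1 control-fed MycF/F,ERT2-Cre array, and another Eef2 probe had the other sign. For the genotypes on Wy-14643, 36 of 48 had the same sign.

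Neighbouring pathways were read from lists chosen with earlier results known. In Wy-14643-fed MycF/F,ERT2-Cre livers, 4 of 9 hypusine and diphthamide genes, which modify eIF5A and eEF2, rose with a median of 0.26. Of 10 mitochondrial translation factors 3 rose, with a median of 0.28, among them Gfm1, a mitochondrial elongation factor, at 0.78 (SE 0.13, limma adjusted p = 0.00157). Of 12 genes of the mTORC1 and S6 kinase axis 3 rose, as did 2 of 9 poly(A)-binding and cap-complex partners and 1 of 9 termination and recycling genes. Of 13 eIF2 kinase, phosphatase and ATF4 genes 1 rose, Impact, an inhibitor of the kinase GCN2, at 0.67 (SE 0.17, adjusted p = 0.0147). Of 21 cytosolic tRNA synthetases 1 rose and 1 fell, with a median of 0.07. For all genes the median was 0.03 and 9.12% rose, so that 1 gene of 9, 13 or 21 is near or below the share of all genes.

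With both genotypes fed Wy-14643, the single call in these lists was Pabpc4, a poly(A)-binding protein, at -0.68 (SE 0.11, limma adjusted p = 0.0402). With the replicate number as a block this call ended, at -0.68 with adjusted p = 0.0916. With slide as a block it stayed, at -0.69 with limma adjusted p = 0.0299. The 20 tested synthetases had a median of -0.18, with 17 below 0, against -0.14 for the translation factors.

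Markers of other liver cells moved in the same comparisons. In Wy-14643-fed MycF/F,ERT2-Cre livers, 6 of 11 Kupffer cell markers, 3 of 10 endothelial and 4 of 10 stellate markers fell. So did 2 of 9 lymphocyte, 2 of 4 erythroid and 6 of 10 hepatocyte markers, against 7.26% of all genes. Hepatocyte markers had a median of -0.78. Of 8 cholangiocyte markers 1 fell and 1, Sox9, rose, at 0.55. Of 7 cycling cell markers 1 fell, as did 1 of 7 pancreatic acinar markers. The mean of the complete Kupffer markers ran from -0.35 to -0.12 in Wy-14643-fed MycF/F,ERT2-Cre livers and from -0.19 to 0.74 in control-fed MycF/F,ERT2-Cre livers. Every hepatocyte marker was well above background. Between genotypes on Wy-14643, 0 of 11 Kupffer markers and 0 of 7 cycling cell markers passed in limma, with medians of 0.36 and -0.88 and with 6 and 5 at an unadjusted p under 0.05. Also at that threshold were 3 of 10 endothelial markers, all higher, and 2 of 9 hepatocyte markers, 1 higher and 1 lower. Of all genes 8.32% were at that threshold. The mean of the complete cycling markers ran from -1.13 to -0.26 in Wy-14643-fed MycF/F,ERT2-Cre livers and from 0.07 to 0.60 in Wy-14643-fed MycF/F livers. The part of these cell markers in the differences of the translation factors was not tested.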

How the data were processed

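Whole-liver RNA on 12 two-colour Agilent arrays was analysed, Cy5 carrying each sample and Cy3 the pooled liver reference. The deposited intensity values are median signals and local backgrounds. They come from version 11.0.1.1 of Agilent Feature Extraction, per the labels and the file headers. The deposited log ratio is a log10 of Cy5 over Cy3 after that software's corrections, per the file headers, and served as an alternative. The deposited outlier and background flags, of other units, were used as filters.

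In R 4.3.3 with limma 3.58.1 and data.table version 1.17.8, signals were corrected by normexp (offset 50), loess-normalized within arrays and averaged per probe after outlier spots were dropped. Probes were kept if Cy5 was well above background on at least 3 arrays, with a share of 0.5 of a probe's spots. The brightest kept probe stood for a gene. One linear model over all 12 arrays (8 residual degrees of freedom) gave moderated tests, with Benjamini-Hochberg adjustment across every gene, and the fit was tested on simulated data. Symbols came from accessions through RefSeq for GRCm38.p6. The members and lists were chosen with earlier results of these data known. Values on every array were given for the 12 factors with the smallest p on Wy-14643 (genotype, or diet in MycF/F,ERT2-Cre) and the brightest of each role. Added to these were the other called factors, Eif3e, Eif4a2 and Eif4ebp3, chosen after their values were seen, and Eef2.

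Replicate numbers are shared between groups. Deviations of same-numbered arrays of both Wy-14643 groups correlated at 0.15 to 0.41 over 3 pairs, and these pairs also share a slide. Replicate 4 of Wy-14643-fed MycF/F,ERT2-Cre and replicate 3 of Wy-14643-fed MycF/F, on 1 slide, correlated at 0.20. Number and slide therefore cannot be told apart there, and the number was used as a block without a known pairing. Between MycF/F,ERT2-Cre groups same-numbered arrays ran from -0.06 to 0.32, so the number was not taken as a pairing. No pair of arrays was a duplicate. Alternatives changed the normalization, filters, probe choice, blocks, weights and arrays used.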

Additional observations from a re-analysis of the deposited data

Results flagged for a closer look

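In 24 groups of 4 or more arrays examined for factors with values on every array, 1 array stood apart from its group. Eif1ax read -0.61 in control-fed MycF/F,ERT2-Cre livers replicate 2, and the other 3 arrays of that group lay between -0.32 and -0.26. The gap to the nearest was 0.831 of the group's range, just past Dixon's 95% limit for 4 samples. Chance flags about 1 in 20 groups. The array lies on slide 1, and the same array read -0.22 for the Myc probe with 10 spots, where the others of its group read -0.86, -0.91 and -1.06. Without that array 9 factors were called for Wy-14643 in MycF/F,ERT2-Cre.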

How the results depend on the processing

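For Wy-14643 in MycF/F,ERT2-Cre, the 9 called factors became 3 under the deposited log ratio, 3 under median centring in place of loess, 3 with added scale normalization (2 of them among the 9) and 1 with the Cy5 channel alone. The other 10 settings gave 9 to 13, and leaving out 1 array 7 to 10. Without slide 1 there were 13, 10 higher and 3 lower, and 6 of them were among the 9. These 13 are not set beside the share of all genes in that fit. The median of 0.14 became 0.22 under median centring and 0.062 with Cy5 alone, and 0.11 to 0.15 when 1 array was left out. Eif1 turned to -0.18 with Cy5 alone.

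For Wy-14643 in MycF/F, the 5 calls became 0 under the deposited log ratio, median centring, Cy5 alone and scale normalization, 3 with the mean of all probes or with outlier spots kept, 2 when fitted on its own groups, 10 with array weights, 12 without slide 1, and 0 to 6 when 1 array was left out. Its median of 0.22 was 0.27 under median centring, 0.18 with slide as a block and 0.21 to 0.22 when 1 array was left out. The counts of calls in MycF/F are not set beside the share of all genes in the same fits.

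With both genotypes fed Wy-14643, 0 factors were called except for 1 (Eef1b2) with array weights and 1 without slide 1, and 0 to 0 when 1 array was left out. The median of -0.14 was -0.092 with Cy5 alone and -0.15 to -0.12 when 1 array was left out. On control diet it was -0.11 with scale normalization and -0.06 to -0.05 leaving out 1 array. For the difference of the diet effects it was 0.0021 under median centring, -0.16 with Cy5 alone, -0.0061 with scale normalization and -0.09 to -0.06 leaving out 1 array. In both, every setting called 0 factors. Where a value changed, the cause was not tested.

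With the replicate number as a block, though no pairing is known, there were 0 calls between genotypes on Wy-14643 and 0 of all genes in place of 26. In the diet comparisons, where a shared number is only a number, the block gave 10 calls in MycF/F,ERT2-Cre (8 of the 9, without Eif3m at adjusted p = 0.0569) and 2 in MycF/F. The number of arrays, with 1 MycF/F control, limits all comparisons, and 23 factors lacked a value on at least 1 array.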
